A study of Rattus norvegicus with 15 samples.

Results

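The Slc22 family members described here are Slc22a8, Ust5r, Slc22a5 and Slc22a7, membrane carriers of organic ions, measured in rat liver. They were taken as all probe sets whose array annotation names only a member gene, which gave 5 of the 31099 probe sets of the array, or 4 of the 14218 genes that a probe set names alone. Slc22a8 had 2 (1368461_at and 1385005_at), and Ust5r (1369450_at), Slc22a5 (1367950_at) and Slc22a7 (1398267_at) had 1 each. A further probe set, 1369840_at, is annotated to both Ust5r and UST4r and is therefore no member, and it is described apart. Liver total RNA came from 15 rats, males of the Sprague-Dawley strain, and was read on 1-channel Affymetrix arrays whose titles count them as biological replicates. The rats entered the experiment at 4 weeks of age, adapted for 5 days and were then fed for 14 days on a diet with 2 g/kg genistein (5 rats), a diet with 2 g/kg daidzein (5 rats) or the same diet free of isoflavone (control, 5 rats). All diets shared a base of casein, palm oil, corn starch and sucrose. Genistein and daidzein are the main soy isoflavones, and genistein carries an additional hydroxyl group. No females and no genetic model were included. Arrays are named by diet and by the replicate number of their titles. For some arrays the description field carries another number, and for genistein 3 it adds the unexplained letters "re".

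Slc22 proteins sit in the plasma membrane and move small charged molecules into or out of cells. The organic anion transporters among them take up drugs, steroid conjugates and metabolic end products, and the carnitine and cation transporters carry cations and zwitterions. In the liver they act mainly on the sinusoidal side of hepatocytes, facing the blood. Slc22a8 encodes Oat3, an organic anion transporter of the basolateral kidney tubule that rat liver also expresses. Ust5r encodes a transporter-like protein of rat liver that is named after its unknown substrate. Slc22a5 encodes Octn2, the high-affinity sodium-dependent carnitine transporter, and Slc22a7 encodes Oat2, an anion transporter of the hepatocyte's sinusoidal membrane.

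Slc22a8 and Ust5r lie in the same cluster of Slc22 genes on rat chromosome 1, while Slc22a5 lies on chromosome 10 and Slc22a7 on chromosome 9 (RefSeq, GRCr8). The promoters of the clustered pair are shown because both genes had lower signals in the same animals. Each runs from 250 bases before the annotated start to 50 bases after it, at chr1:214927034-214927333 on the plus strand for Slc22a8 and chr1:214715485-214715784 on the minus strand for Ust5r (RefSeq, GRCr8). Capitals mark the core of the binding motif of HNF1, GTTAAT, on either strand.
Slc22a8: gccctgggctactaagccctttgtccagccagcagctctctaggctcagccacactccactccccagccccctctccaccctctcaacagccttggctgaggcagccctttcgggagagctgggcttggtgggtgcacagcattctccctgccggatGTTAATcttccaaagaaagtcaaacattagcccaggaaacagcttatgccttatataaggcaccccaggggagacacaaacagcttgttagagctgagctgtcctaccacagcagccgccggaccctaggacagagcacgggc
Ust5r: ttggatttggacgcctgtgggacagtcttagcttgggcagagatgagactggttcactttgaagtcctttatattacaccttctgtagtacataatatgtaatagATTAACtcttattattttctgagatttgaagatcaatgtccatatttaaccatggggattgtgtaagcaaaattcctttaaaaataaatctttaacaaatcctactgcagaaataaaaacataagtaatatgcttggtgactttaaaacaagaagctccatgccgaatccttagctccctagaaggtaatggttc
Both windows hold the motif once, starting at base -93 from the start in Slc22a8 and, on the opposite strand, at base -145 in Ust5r. It was present in 7.45% of the 33469 rat promoter windows of the same length, and in neither the Slc22a5 nor the Slc22a7 window. The windows differ in base composition, with 58.0% G and C in Slc22a8, 35.0% in Ust5r, 73.7% in Slc22a5 and 54.0% in Slc22a7. The median over all windows was 51.7%. GTTAAT holds mostly A and T, so its share over all windows need not hold for windows of such differing composition. Of the other motifs searched on both strands, the HNF4 core AGTCCA, present in 14.1% of all windows, was found in the Slc22a7 window alone among the members. The STAT motif TTCNNNGAA (8.87% of windows) and the nuclear receptor core AGGTCA (16.2%) were in none of the 4. The motifs did not overlap each other in these windows, and a match is only a match of letters.

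Levels are given in log2 intensity steps, a scale inferred from the spacing of the deposited values, after normalization between arrays. Probe sets differ in how strongly they bind, so levels are compared between diets and not between genes. The filter for testing lay at a mean level of 5.00 over all arrays, and all 5 member probe sets lay above it. The livers gave hepatocyte signals, with Alb, the albumin gene, at the top of the scale (14.6). Marker genes of other cells that the tissue could hold showed no call in any comparison (limma adjusted p), and their own values stand further below. RNA from whole liver cannot tell apart fewer cells of a type and less RNA per cell.

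The members were chosen by their signals on these same arrays, with the differences between genistein and the other diets already known. Values that set genistein against control or against daidzein are therefore a description of the members, with no test claimed, and only daidzein against control was tested.

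Slc22a8, the organic anion transporter Oat3, was lower on the genistein diet than on either other diet. On probe set 1368461_at its level was 6.86, 7.03, 7.12, 9.95 and 8.61 in genistein 1 to 5. It was 10.48, 10.57, 10.64, 10.59 and 10.29 in daidzein 1 to 5. It was 10.57, 10.40, 10.19, 10.63 and 10.61 in control 1 to 5. All 5 genistein arrays lay below all 10 others, with genistein 1, 2 and 3 far below and genistein 4 close to them. The means were 7.91 ± 1.34 with genistein, 10.51 ± 0.14 with daidzein and 10.48 ± 0.18 in control (SD, n = 5 each). The log2 difference was -2.57 for genistein minus control (SE 0.45, 95% confidence interval -3.53 to -1.60), a 5.93-fold lower signal. For genistein minus daidzein it was -2.60 (SE 0.45, interval -3.57 to -1.63), a 6.06-fold lower signal. By size these differences ranked 15 and 14 among the 18625 probe sets tested. The spread with genistein was far wider than in the other diets, and the model uses a single spread for all of them.

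The other Slc22a8 probe set, 1385005_at, had a level of 6.53, 4.33, 4.04, 6.58 and 5.52 in genistein 1 to 5. In daidzein 1 to 5 it was 7.67, 7.55, 7.42, 7.13 and 7.11, and in control 1 to 5 it was 7.69, 7.31, 7.55, 7.90 and 7.68. Again all genistein arrays lay below the other 10, and again genistein 2 and 3 were low and genistein 4 was the highest of its diet. The probe sets parted in genistein 1, which was the lowest genistein array on 1368461_at and the second highest on 1385005_at. The log2 difference was -2.23 for genistein minus control (SE 0.41), a 4.68-fold lower signal, and -1.98 for genistein minus daidzein (SE 0.41), a 3.94-fold lower signal. In 2 genistein arrays this probe set was under the filter level. With 16 intensity steps added before the logarithm its difference from control was -1.80.

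Ust5r, which lies near Slc22a8, was lower in the same arrays. Its level was 6.45, 6.40, 6.92, 9.43 and 8.82 in genistein 1 to 5. It was 10.22, 9.81, 10.04, 9.65 and 10.45 in daidzein 1 to 5, and 10.41, 9.91, 10.13, 10.31 and 9.90 in control 1 to 5. No genistein array reached the range of the other diets, and genistein 4 and 5 came nearest, as on 1368461_at of Slc22a8. The means were 7.60 ± 1.42 with genistein, 10.03 ± 0.32 with daidzein and 10.13 ± 0.23 in control (SD, n = 5 each). The log2 difference was -2.53 for genistein minus control (SE 0.49, interval -3.58 to -1.48), a 5.78-fold lower signal, and -2.43 for genistein minus daidzein (SE 0.49, interval -3.48 to -1.38), a 5.39-fold lower signal.

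**Figure D1:**
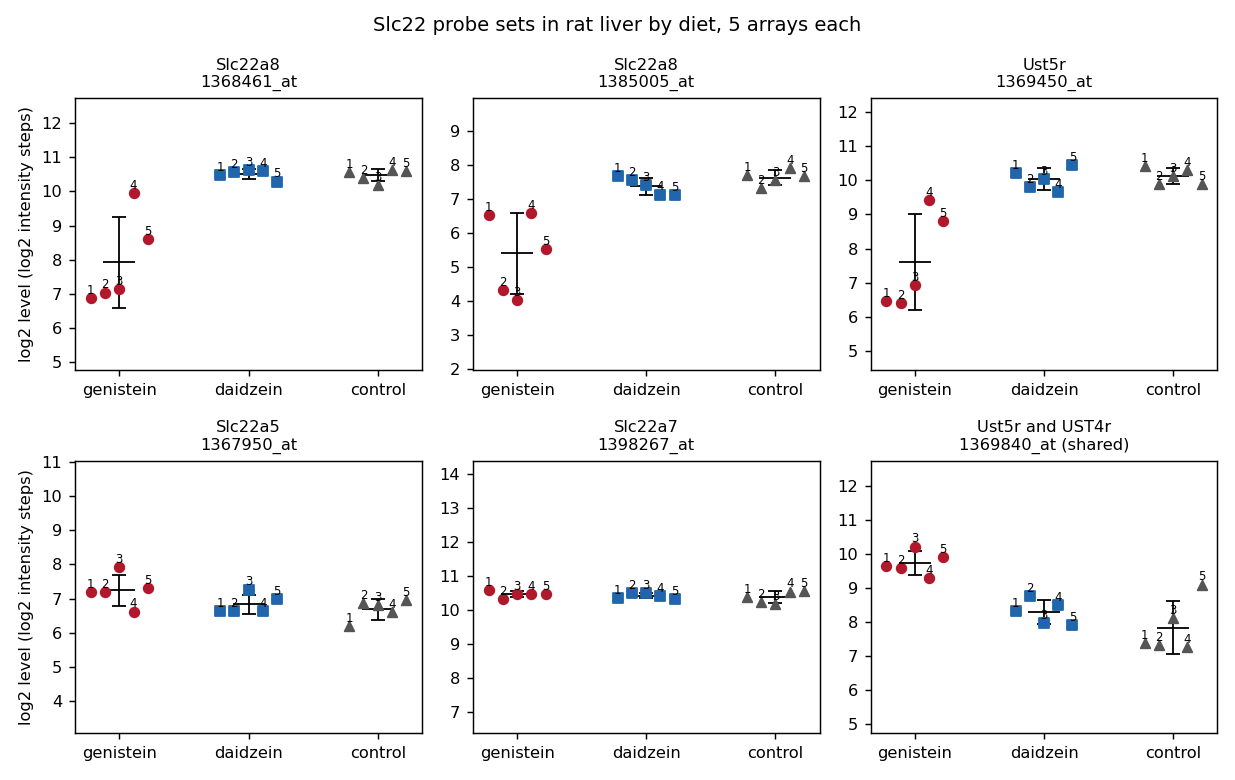
Log2 level (log2 intensity steps, y axis) of the 5 member probe sets and of the probe set shared by Ust5r and UST4r, by diet. Each point is an array with its replicate number, and the bar is the mean with the SD of 5 arrays; every panel spans 8 log2 units. Genistein arrays lie below the others for Slc22a8 and Ust5r, with genistein 4 nearest to them, and above the others for the shared probe set.

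Slc22a5, the carnitine transporter Octn2, had slightly higher values with genistein. Its level was 7.18, 7.20, 7.91, 6.62 and 7.30 in genistein 1 to 5. It was 6.63, 6.63, 7.26, 6.63 and 6.98 in daidzein 1 to 5, and 6.19, 6.87, 6.81, 6.61 and 6.96 in control 1 to 5. In genistein, 4 of the 5 arrays lay above every control array, and genistein 4 lay inside the control range. The log2 difference was 0.56 for genistein minus control (SE 0.21, interval 0.10 to 1.01) and 0.41 for genistein minus daidzein (SE 0.21, interval -0.04 to 0.87). Neither passed the threshold of the fit. The value from control was smallest, at 0.39, without genistein 3 and largest, at 0.72, without genistein 4.

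Slc22a7, the sinusoidal anion transporter Oat2, had levels of 10.59, 10.32, 10.48, 10.47 and 10.47 in genistein 1 to 5. They were 10.36, 10.50, 10.49, 10.41 and 10.33 in daidzein 1 to 5, and 10.39, 10.24, 10.19, 10.54 and 10.55 in control 1 to 5. The diets overlapped throughout. The log2 difference was 0.08 for genistein minus control (SE 0.09, interval -0.10 to 0.27), and 0.05 for genistein minus daidzein (interval -0.14 to 0.23). Neither passed the threshold of the fit. These are the narrowest intervals among the members.

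Read across the array, 3 of the 5 member probe sets passed the threshold in genistein against control (both of Slc22a8 and that of Ust5r, all lower), where 0.172% of the 18625 probe sets tested were called lower and 0.322% were called in either direction (limma, Benjamini-Hochberg adjusted p under 0.05). In genistein against daidzein it was 1 of the 5, 1368461_at of Slc22a8, where 0.0805% of all were called lower, 0.0322% higher and 0.113% in either direction. All 5 genistein arrays lay below all 5 control arrays on the same 3 member probe sets and on 1.35% of all probe sets, while 1.21% had all genistein arrays above all control arrays. They lay below all 5 daidzein arrays on the same 3, and on 1.06% of all, with 0.966% the other way. Since these contrasts chose the members, nothing is read from the counts. With only the 10 arrays of genistein and control in the fit, none of the 3 passed the threshold. Against daidzein, the call of 1368461_at held in 7 of 22 alternative settings, and was lost with only the 10 arrays of the 2 diets, with no filter and with replicate number as a block (limma adjusted p 0.164, 0.0892 and 0.0829).

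The comparison of daidzein with control asks whether the other isoflavone, at the same dose and time, moved these carriers. It was called for none of the 5 member probe sets (limma adjusted p from 0.894 to 0.990, lowest unadjusted p 0.515, 0 of 5 under an unadjusted p of 0.05), where 0.0161% of all probe sets tested were called. Of all 18625 probe sets tested, 1536 had an unadjusted p under 0.05 in this comparison (limma). For Slc22a8 the log2 difference was 0.03 on 1368461_at (SE 0.45, interval -0.93 to 1.00, adjusted p = 0.990, limma) and -0.25 on 1385005_at (SE 0.41, interval -1.13 to 0.63, adjusted p = 0.903, limma). For Ust5r it was -0.10 (SE 0.49, interval -1.15 to 0.95, adjusted p = 0.971, limma). These intervals are wide because the fit shares its spread with the genistein arrays, and for 1368461_at they run from a ratio of 0.524 to 2.00. For Slc22a5 the difference was 0.14 (interval -0.31 to 0.60, adjusted p = 0.894, limma), and for Slc22a7 it was 0.04 (interval -0.14 to 0.22, adjusted p = 0.930, limma). The contrast shares its control arrays with that of genistein.

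**Figure D2:**
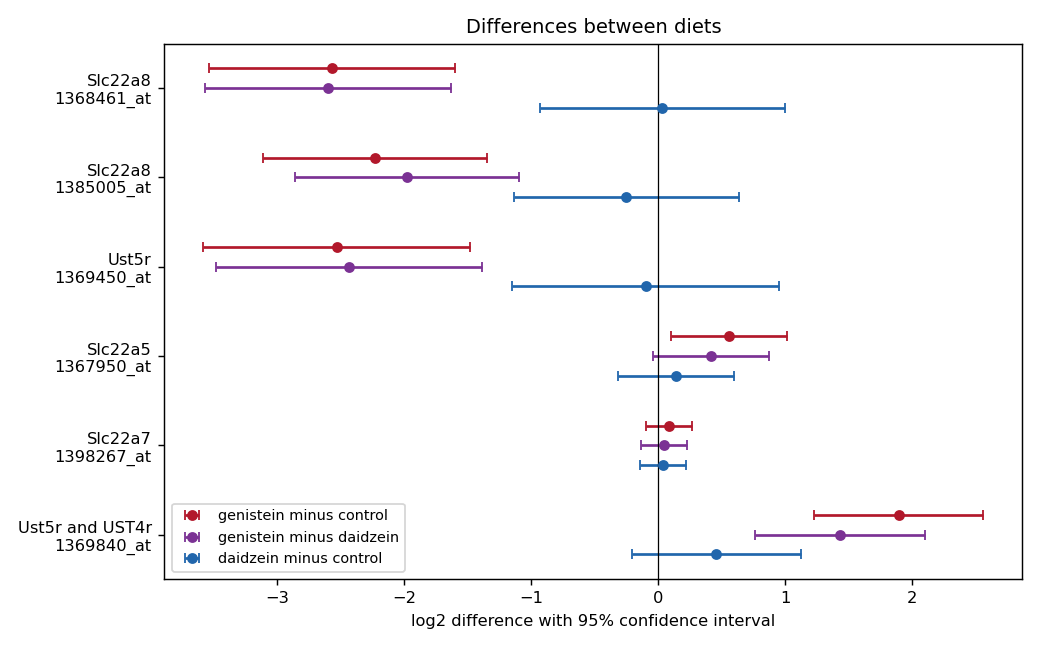
Log2 difference (x axis) with its 95% confidence interval for each probe set (y axis) in the 3 comparisons. The intervals of Slc22a8 and Ust5r for genistein against either diet lie wholly below 0, those for daidzein minus control span 0, and the shared probe set lies above 0 for genistein.

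Within the genistein diet, Slc22a8 on 1368461_at and Ust5r had genistein 1, 2 and 3 as their lowest 3 arrays, genistein 5 next and genistein 4 as the highest. On 1385005_at of Slc22a8 the lowest 3 were genistein 2, 3 and 5. Without genistein 4 the difference from control was -3.08 for Slc22a8 on 1368461_at and -2.99 for Ust5r. Without genistein 1 it was -2.31 for Slc22a8, and without genistein 2 it was -2.23 for Ust5r. Over the 15 arrays Pearson's r with Ust5r was 0.974 for 1368461_at, and 0.912 once the diet means were removed. For 1385005_at it was 0.840, and 0.460 once the diet means were removed. The probe sets of Slc22a8 had r of 0.864 with each other, and 0.517 without the diet means. These values describe the same 15 arrays, in which the genistein diet had the widest spread.

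**Figure D3:**
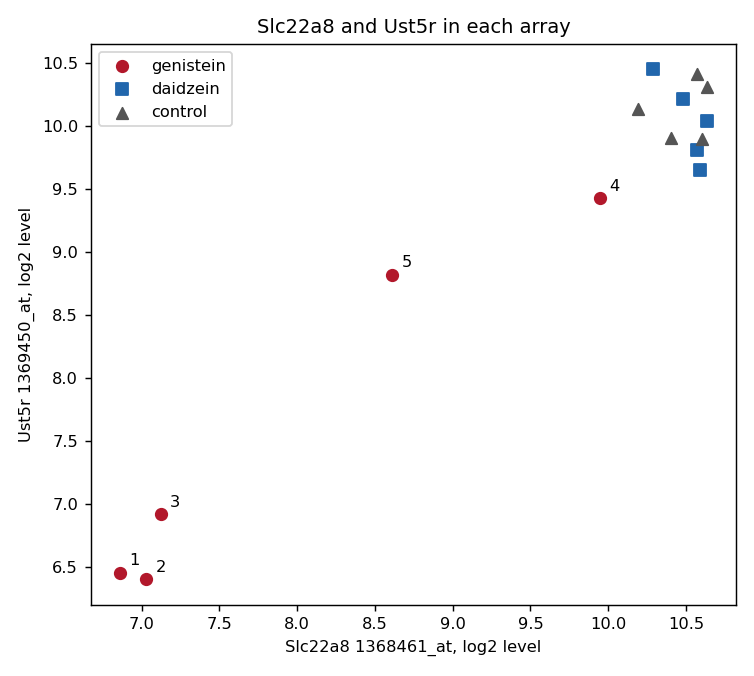
Log2 level of Slc22a8 (1368461_at, x axis) against Ust5r (1369450_at, y axis) in each of the 15 arrays, with genistein arrays numbered. Genistein 1, 2 and 3 lie together at low values of both genes, genistein 5 and 4 lie between them and the daidzein and control arrays, which form a single group.

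The probe set annotated to both Ust5r and UST4r, 1369840_at, went the other way from Ust5r's own. Its level was 9.63, 9.58, 10.21, 9.28 and 9.90 in genistein 1 to 5. It was 8.31, 8.76, 7.97, 8.48 and 7.91 in daidzein 1 to 5, and 7.37, 7.32, 8.10, 7.26 and 9.09 in control 1 to 5. Every genistein array lay above every other array, and control 5 lay nearest to them. It was higher with genistein than in control, with a log2 difference of 1.89 (SE 0.31, interval 1.22 to 2.56, limma adjusted p = 0.0215), a 3.71-fold higher signal, where 0.150% of all probe sets were called higher. Against daidzein it was 1.43 higher without passing the threshold of the fit (SE 0.31, limma adjusted p = 0.0879), and daidzein minus control was 0.46 (SE 0.31, limma adjusted p = 0.724). The transcript accession that the array annotation gives for this probe set belongs to UST4r in the RefSeq table, and which of the genes its signal comes from was not tested. The probe set was singled out for its name after its values were seen. Its genistein differences and their adjusted p are therefore a description, with no test claimed. The call against control was lost without control 1, 2, 3 or 4 or genistein 2 or 3, with adjusted p over the 15 fits without an array between 0.00148 and 0.0753 and the difference between 1.74 and 2.21. It was also lost with no filter, with only the 10 arrays of the 2 diets and with replicate number as a block (adjusted p 0.0641, 0.105 and 0.0706, limma).

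Of the other neighbours of Slc22a8 and Ust5r in the RefSeq gene order, only Slc22a6, Slc3a2 and Wdr74 had a tested probe set. None of these was called. The rest lay below the filter or had no probe set, so they could not be called. Only Slc22a25, an organic anion transporter family gene, lies between Slc22a8 and Ust5r among protein-coding genes, and its probe set had a mean level of 4.82, below the filter. Slc22a24, on the far side of UST4r, was also below it, at 4.90. Slc22a6, which encodes the kidney anion transporter Oat1 and adjoins Slc22a8, had a log2 difference of -0.0008 for genistein minus control (limma adjusted p = 0.9996). Its mean level was 5.23, near the filter level of 5.00. Slc3a2, the heavy chain of amino acid transporters, had a difference of 0.16 (limma adjusted p = 0.690), and Wdr74 had 0.08 (limma adjusted p = 0.844).

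Of 24 other Slc22 family genes listed, 13 were named alone by an array probe set, and 7 of these were tested. UST4r, also listed, is named only on the shared probe set 1369840_at described above, so it is not among them. That probe set had a log2 difference of 1.89 for genistein minus control (limma adjusted p = 0.0215). None of the 7 was called in any of the 3 comparisons (limma), and 1 had an unadjusted p under 0.05 in each. Of all 18625 probe sets tested, 2040 were under it for genistein minus control, 1536 for daidzein minus control and 1746 for genistein minus daidzein. Such counts in the lists below are to be read beside these. The median log2 difference of the 7 was -0.01 for genistein minus control, with a range of -0.22 to 0.08, and -0.10 for daidzein minus control, against a median of 0.00 over all probe sets tested in both. Slc22a18, an organic cation transporter-like gene, had -0.22 for genistein minus control (SE 0.09, adjusted p = 0.395), Slc22a15 -0.15, Slc22a4, the carnitine-related transporter Octn1, -0.18 (SE 0.34) and Slc22a2, the cation transporter Oct2, 0.08. Among the tested genes Slc22a2, Slc22a4, Slc22a6 and Slc22a15 had mean levels of 5.13, 5.36, 5.23 and 5.07, near the filter. The genes below the filter were Slc22a3, Slc22a12, Slc22a13, Slc22a21, Slc22a24 and Slc22a25, with mean levels from 3.75 to 4.90.

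Hepatocytes take up and release organic ions through other carriers too. Of 14 uptake carriers listed outside the Slc22 family, 11 were tested and none was called in any comparison, with 4, 0 and 1 at an unadjusted p under 0.05 for genistein minus control, daidzein minus control and genistein minus daidzein (limma). Slco1b2, the liver anion-transporting polypeptide, had a log2 difference of 0.44 for genistein minus control (SE 0.13, adjusted p = 0.209), and Slc10a1, the sodium-dependent bile acid carrier Ntcp, had 0.25 (SE 0.09, adjusted p = 0.300). Slc29a1, a nucleoside transporter, had -0.49, and Slco3a1, another transporting polypeptide, had 0.69 (SE 0.26), or 1.24 on its other tested probe set, neither called. Both Slco3a1 probe sets had a mean level of 5.28, near the filter level of 5.00, and their control means of 4.95 and 4.66 lay under it. The list's median was 0.08 for genistein minus control and 0.05 for daidzein minus control.

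Of 15 efflux carriers, 8 were tested and none was called, with 3, 1 and 3 at an unadjusted p under 0.05 in the same order of comparisons. The medians were 0.16 for genistein minus control and -0.01 for daidzein minus control. Abcc2, the canalicular conjugate pump Mrp2, had 0.49 for genistein minus control (SE 0.13, limma adjusted p = 0.142), Abcb4, the phospholipid flippase, 0.45, Abcb1a, a P-glycoprotein, 0.49, and Abcg2, the multidrug pump Bcrp, -0.55 (SE 0.22, limma adjusted p = 0.368).

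The carnitine that Slc22a5 imports serves the mitochondrial and peroxisomal handling of fatty acyl groups. Of 11 genes of carnitine synthesis and the acylcarnitine shuttle, all 11 were tested and none was called in any comparison, with 5, 1 and 0 at an unadjusted p under 0.05 (limma). Their median was -0.02 for genistein minus control and -0.02 for daidzein minus control. Cpt1a, the outer mitochondrial carnitine acyltransferase of liver, had 0.47 for genistein minus control (SE 0.17), Cpt1b, its muscle form, -0.39 (SE 0.11), Tmlhe, the first enzyme of carnitine synthesis, -0.24 and Acadm, a medium-chain acyl-CoA dehydrogenase, -0.27 (SE 0.08, limma adjusted p = 0.180). The mean level of Cpt1b, 5.11, lay near the filter.

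**Figure D4:**
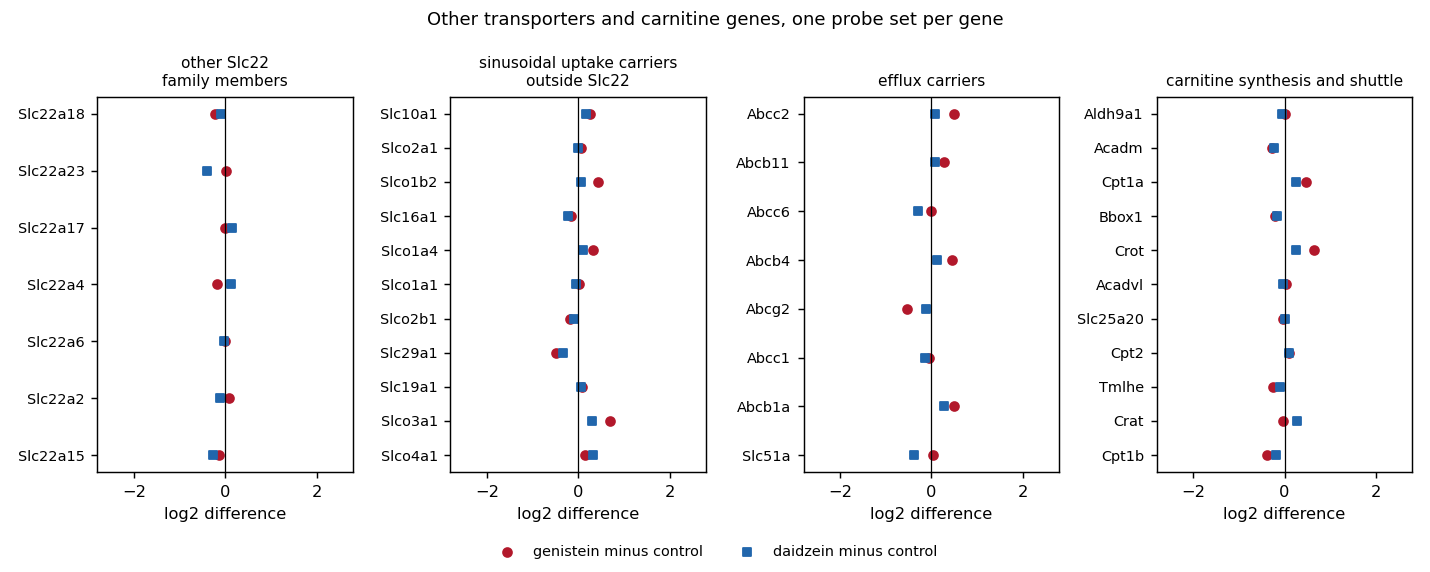
Log2 difference (x axis) of each tested gene of 4 lists, 1 probe set per gene that names it alone, for genistein minus control (circles) and daidzein minus control (squares). All points lie between -0.55 and 0.69, smaller in size than the genistein differences of Slc22a8 and Ust5r, and none was called.

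Of 19 transcription factors and receptors reported to control Slc22 genes, 15 were tested and none was called, with 1, 1 and 3 at an unadjusted p under 0.05 (limma). Bcl6, a repressor with a sex difference in rodent liver, had a log2 difference of -1.45 for genistein minus control (SE 0.57, adjusted p = 0.354), with 5.79 ± 0.64 in genistein and 7.25 ± 1.32 in control (SD, n = 5 each, limma adjusted p as given). Hnf4a, a hepatocyte nuclear receptor, had -0.23 on its brightest probe set and 0.31 and 0.33 on its others, Nr1i2, the receptor PXR, 0.22 and Cebpb, a liver basic leucine zipper factor, -0.47, none of them called.

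The genes whose pattern over the 15 arrays was most like that of each member were found by Pearson's r, given with its value after the diet means were removed. For Slc22a8 they were Dhrs7l1, a dehydrogenase and reductase family gene (0.972 and 0.884), Cyp2c11, a cytochrome P450 (0.969 and 0.929), and Hsd3b5, a hydroxysteroid dehydrogenase (0.962 and 0.886). For Ust5r they were Cyp2c11 (0.990 and 0.978), Hsd3b5 (0.980 and 0.940) and Cyp3a2, another cytochrome P450 (0.968 and 0.933). For genistein minus control Dhrs7l1 had a log2 difference of -4.74 (SE 0.73, limma adjusted p = 0.0159) and Hsd3b5 -3.63 (SE 0.71, limma adjusted p = 0.0481). Both were larger in size than those of Slc22a8 and Ust5r. Cyp2c11 had -1.38 (SE 0.30, limma adjusted p = 0.0757) and Cyp3a2 -1.75 (SE 0.44, limma adjusted p = 0.120). In the same order, daidzein minus control was -0.13, -0.35, -0.11 and -0.08. The genes most like Slc22a5 were Arrdc3, an arrestin-domain gene (0.899 and 0.855), Prps1, a phosphoribosyl pyrophosphate synthetase (0.882 and 0.896), and Herc4, a ubiquitin ligase (0.879 and 0.833). For Slc22a7 they were Itih4, a plasma protein of the inter-alpha-trypsin inhibitor family (0.827 and 0.942), Wfikkn1 (0.799 and 0.778) and Ndufa11, a subunit of respiratory complex I (0.768 and 0.777). All these values come from the same 15 arrays and are a description. Genes picked for likeness to Slc22a8 or Ust5r are lower with genistein by that choice, so no test is claimed from their adjusted p. Of all probe sets tested, 0.172% were called lower for genistein minus control.

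Markers of cells outside the hepatocyte were compared in the same fit. The 5 tested hepatocyte markers had differences of -0.09 to 0.05 for genistein minus control. Quantile normalization gives the brightest probe sets nearly the same value in every array, and Alb exactly the same, so these differences and the list's summed level (16.3) could hardly vary and say nothing about hepatocyte content. Of the kidney tubule list, Umod (mean level 4.52) and Slc12a1 (1.58) lay below the filter, and Slc34a1 and Aqp2 were near it, at 5.08 and 5.06, with a summed level of 5.35 to 6.35 with genistein, 5.98 to 6.78 with daidzein and 5.99 to 6.28 in control. The summed levels of the 3 Kupffer cell markers ranged from 10.0 to 10.8 with genistein, 10.1 to 10.5 with daidzein and 10.3 to 10.6 in control. Of the leukocyte list all 4 genes were tested, with summed levels of 9.99 to 11.1 with genistein, 10.0 to 10.6 with daidzein and 10.5 to 10.8 in control. The 5 stellate cell markers had 10.7 to 10.9, 10.4 to 10.8 and 10.7 to 10.9 in the same order of diets, and the 4 endothelial markers had 10.4 to 10.8, 10.4 to 10.5 and 10.4 to 10.7. Of the erythroid list 2 of 3 genes were tested (13.0 to 13.3, 13.1 to 13.6 and 13.1 to 13.8), of the cholangiocyte list 1 of 4 (5.57 to 6.16, 6.00 to 6.21 and 6.01 to 6.75) and of the adipocyte list 0 of 2. A summed level adds linear signals, so the brightest genes of a list carry most of it. Among the leukocyte markers these were Lyz2 and Cd74, with mean levels of 9.73 and 9.19. The dimmer Cd3e had a log2 difference of -1.19 for genistein minus control, and 0.34 on its other probe set, neither called. Their mean levels were 5.19 and 5.04, near the filter. The part of cell composition in the values of Slc22a8 and Ust5r was not tested.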

How the data were processed

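Liver RNA of 15 rats was amplified by Affymetrix's 1-cycle labelling, per the labels' protocols. The values used are a score deposited by the authors for 31099 probe sets, read here as a standardized log signal per array; background, summary and scale are not given in the sources used here. This unit differs from the log2 scale that the design assumed. After exponentiation, the spacing of values that recur within an array came out in whole steps (tolerance 0.001) for 360 of 360 gaps, with 2.54 to 2.79 log2 units per deposited unit. Scores were multiplied by the mean, 2.60, and set to log2 steps, so log2 sizes rest on this inference. The 57 control probe sets were left out, 260 values in 97 probe sets were missing (none among those tested), arrays were quantile normalized, and 18625 probe sets, those whose mean level reached the 40th percentile, were fitted (limma 3.58.1, R 4.3.3, 3 diets, 12 residual degrees of freedom), with Benjamini-Hochberg adjustment over all of them and a threshold of 0.05. The number of arrays limits the precision. The model was tried on simulated normal noise with the same spread in every diet. That setting does not cover the wider genistein spread of Slc22a8 and Ust5r.

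Symbols came from the array annotation, updated through the current rat gene table, with no genome build named for the array; 20832 probe sets had 1 symbol, 436 several and 9831 none. A gene stands by its tested probe set of highest mean level. Named genes are the members, list genes called or among the 4 of lowest p for genistein minus control, and the 3 most correlated genes per member. The members, lists and tests were chosen with earlier results of these data known. The titles call the arrays biological replicates. Their replicate numbers might pair arrays across diets: residuals of 15 same-numbered pairs correlated between -0.163 and 0.109, with 1 above 0.1, so the numbers were used as a block only as an alternative. Other alternatives were the scores as deposited, each array's own scale, 16 steps added, other filters, 10 arrays only and leaving out each array.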

Additional observations from a re-analysis of the deposited data

Results flagged for a closer look

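The probe set annotated to both Ust5r and UST4r, which no member comparison used, had a log2 difference of 1.89 for genistein minus control, above every control array. Among 78 groups of 5 arrays (26 named probe sets in 3 diets), 2 held an array far from the others of its diet, where chance gives about 1 group in 20. Slc22a18 was at 10.9 in genistein 2, against 10.7 to 10.8 in the other genistein arrays. Nr1i2 was at 8.37 in genistein 3, against 7.80 to 7.88 in the others. No member probe set held such an array.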

How the results depend on the processing

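Changing the filter, adding the replicate block or using only 10 arrays cannot alter a difference of diet means, only its test. The genistein differences of Slc22a8 and Ust5r kept their sign in all 22 alternatives, these included. From control they ranged from -3.08 to -2.31 for Slc22a8 on 1368461_at, from -2.54 to -1.80 on 1385005_at and from -2.99 to -2.23 for Ust5r, and the threshold was passed in 11, 6 and 6 of the 22. With the replicate block, adjusted p was 0.0651 and 0.0706 for the Slc22a8 probe sets and 0.0891 for Ust5r, and with only the 10 arrays of the 2 diets it was 0.169, 0.175 and 0.176. For daidzein minus control no member passed in any alternative; without control 3 the sign turned for Slc22a8 on 1368461_at (-0.040) and for Slc22a7 (-0.0093). Leaving out 1 array gave daidzein minus control values of -0.040 to 0.089 for Slc22a8 on 1368461_at, -0.329 to -0.182 on 1385005_at, -0.204 (without daidzein 5) to -0.0037 (without daidzein 4) for Ust5r, 0.017 (without control 1) to 0.210 (without control 5) for Slc22a5 and -0.0093 to 0.080 for Slc22a7.

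Over all probe sets, 60 were called for genistein minus control, 3 for daidzein minus control and 21 for genistein minus daidzein. For genistein minus control the count was 14 with no filter, 124 with the filter at the 60th percentile, 17 with the replicate block and 0 with only the 10 arrays (1896 at an unadjusted p under 0.05). When 1 array was left out it was 10 to 203, the highest without genistein 4. For genistein minus daidzein it was 9 with each array's own scale, 35 with 16 steps added, 3 with no filter, 67 with the stricter filter, 2 with only the 10 arrays, 2 with the replicate block and 3 to 136 when 1 array was left out. For daidzein minus control it was 7 with the stricter filter and 2 to 8 when 1 array was left out. No list gene that a tested probe set names alone was called in any of these. The causes were not tested.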
